A study of Mus musculus with 8 samples.

Results

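Genes of cholesterol and fatty acid synthesis were followed in 2 regions of the mouse head mesenchyme at E12.5, the supraorbital mesenchyme (SOM) above the eye and the early migrating mesenchyme (EMM). The set was chosen by gene symbol and holds 30 genes of 23420 in the deposited table, of which 29 were found by their current symbol and 1, Msmo1, by its older symbol Sc4mol. It covers 17 enzymes of sterol synthesis, 5 genes of sterol sensing, 7 enzymes of fatty acid synthesis and the sterol carrier Stard4. Both groups came from wild-type C57BL/6 embryos, with 4 SOM and 4 EMM libraries, each made from the combined tissue of 4 to 5 embryos after dispase treatment and removal of the surface ectoderm and the brain. The labels do not state whether SOM and EMM pools shared embryos.

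Cholesterol is built from acetyl-CoA through mevalonate, isoprenoid diphosphates and squalene, and the last enzymes reshape lanosterol into cholesterol. Cells adjust this supply through the SREBP transcription factors, encoded by Srebf1 and Srebf2, which the protein Scap escorts from the endoplasmic reticulum to the Golgi for cleavage, and which Insig proteins hold back when sterols are plentiful. Fatty acid synthesis draws on the same acetyl-CoA, and in the embryonic head cholesterol is also known for its covalent attachment to Hedgehog ligands and for craniofacial malformations when its last synthesis steps are defective.

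The libraries held 16765416 to 33694331 gene-assigned reads in SOM and 12703844 to 22440232 in EMM. Levels are normalized counts, that is reads divided by a size factor of their library. A mean is printed with its SD over the 4 libraries of its region. Differences are SOM minus EMM on the log2(normalized count + 1) scale with the standard error (SE), and limma's test with Benjamini-Hochberg adjustment over all genes was called at 0.05. All 7 mesenchyme markers examined were detected in each library. Markers of other cell types moved with the regions. The summed level of 13 macrophage genes was 2986 to 3381 in SOM against 12262 to 15334 in EMM, and that of 9 pericyte and smooth muscle genes 9765 to 11434 against 60607 to 68387, with all members of both lists higher in EMM. The sum of 7 endothelial genes was 12078 to 14097 in SOM against 16240 to 21158 in EMM, with 1 higher in SOM and 6 higher in EMM. The order was the other way for 7 neural crest glia genes, at 1123 to 1281 in SOM against 221 to 267 in EMM, and for 13 cell division genes, at 80167 to 82256 against 50747 to 57968. The sum of 12 red blood cell genes was 82064 to 99625 in SOM against 152656 to 425109 in EMM, with none of the 10 tested higher in SOM and 9 higher in EMM, while Hba-a1 and Hba-a2 were listed at 0 in all libraries. The 13 surface ectoderm genes were mixed. Their sum was 1623 to 2121 in SOM against 4223 to 4622 in EMM, but it was carried by Cdh3, at 1488 in SOM and 3515 in EMM, and of the 10 tested only Cdh3, Krt8 and Cdh1 passed, all higher in EMM. The keratinocyte markers Krt5, Krt14, Krt15, Trp63 and Grhl3 did not pass and had higher means in SOM. Their levels were uneven between libraries of a region. Krt5 was 55.4, 46.2, 43.4 and 140 in SOM replicates 1 to 4, against 3.07, 192, 55.4 and 8.08 in EMM replicates 1 to 4. Krt14 was likewise highest in replicate 4 of SOM and in replicates 2 and 3 of EMM. Of 7 tested neuron genes, 3 were higher in SOM and 3 in EMM. The part of these cell types in the results below was not tested, and in bulk tissue fewer cells of a type and less RNA per cell cannot be told apart.

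Most lipid synthesis genes were slightly lower in SOM than in EMM, and a smaller number were higher. All 30 passed the filter on low values. Of these, 7 were higher in SOM, 18 were higher in EMM and 5 did not pass. Members higher in SOM made up 23.3% of the 30, against 36.0% of all tested genes, and members higher in EMM 60.0%, against 36.1%. In either direction 72.1% of all tested genes passed. The differences were small. Their median size was 0.21 on the log2 scale, against 0.40 over all 14249 genes tested, and 24 of the 30 lay within the middle 50% of all differences. A called difference of at least 1.5-fold was found for 2 members, Scd1 and Stard4, or 6.67% of them, against 32.1% of all tested genes. The median coefficient of variation among the members was 5.54% in SOM and 4.196% in EMM, against 6.09% and 5.16% for genes with a mean of at least 300 normalized counts. The 4 libraries of each group did not overlap for 21 of the 30, or 70.0%, where 66.1% of all tested genes showed no overlap. SOM lay above EMM in 5 members, where 32.9% of all tested genes did so, and EMM above SOM in 16, where 33.2% did so.

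**Figure D1:**
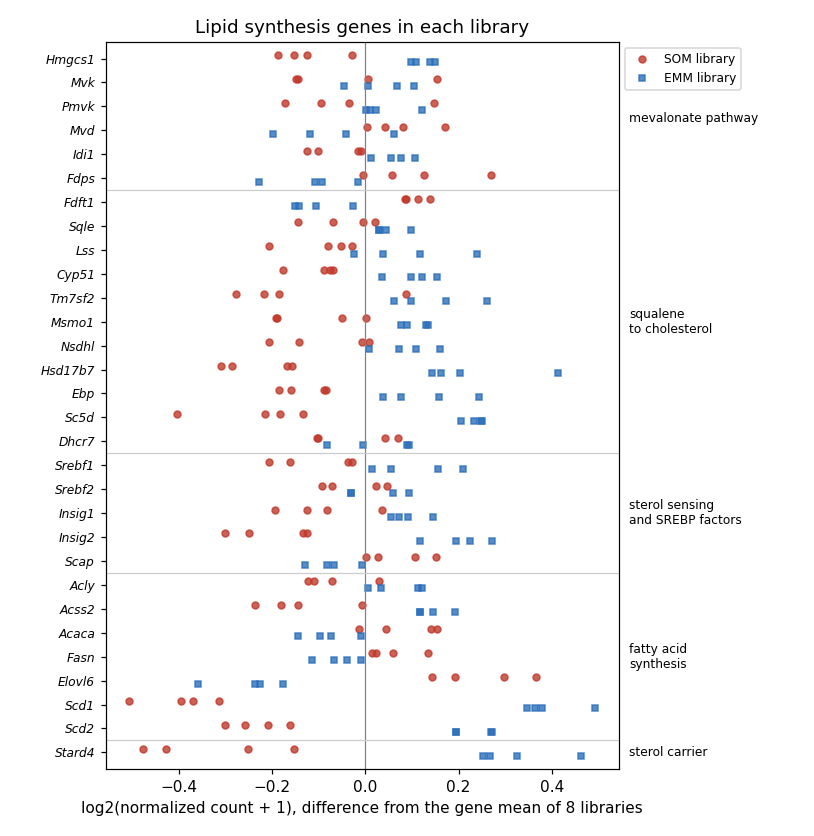
Level of each gene in each library on the log2(normalized count + 1) scale, drawn as the difference from that gene's mean over the 8 libraries, with SOM libraries as circles and EMM libraries as squares. The groups lie apart for 21 of the 30 genes, with SOM above in 5 and EMM above in 16.

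The size of the differences makes the scaling of libraries matter. With libraries scaled to equal total reads the median difference of all tested genes moved by 0.11 toward SOM, and the members moved with it. The counts then were 7 members higher in SOM, or 23.3%, where 44.3% of all tested genes were, and 7 higher in EMM, or 23.3%, where 30.1% of all tested genes were. Under that scaling the excess of members higher in EMM over the genome-wide share was no longer present. A scaling moves all genes alike, so the median of the 30 relative to that of all tested genes, -0.19, cannot depend on it. A further fit omitted SOM replicate 4 and EMM replicates 2 and 3, the libraries with the highest Krt5 and Krt14 of their regions. It gave 3 members higher in SOM, where 33.7% of all tested genes were, and 17 higher in EMM, where 34.0% were. In 19 alternative settings, 10 genes kept their call and direction throughout. These were Fdps, Fdft1 and Elovl6, higher in SOM, and Hmgcs1, Hsd17b7, Sc5d, Insig2, Scd1, Scd2 and Stard4, higher in EMM.

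Promoters are shown as examples for 5 members, 2 higher in SOM (Elovl6 and Fasn) and 3 higher in EMM (Hmgcs1, Insig1 and Sc5d). They do not stand for all members of a direction. Each window runs from 250 bases before to 50 bases after a RefSeq gene start on GRCm38.p6, 5′ to 3′ on the gene's strand. Capitals mark the core of the sterol regulatory element, TCACNCCAC, which SREBP factors bind, the CCAAT box, bound by NF-Y, and the GC box, GGGCGG, bound by Sp1 family factors, each on either strand.
Elovl6: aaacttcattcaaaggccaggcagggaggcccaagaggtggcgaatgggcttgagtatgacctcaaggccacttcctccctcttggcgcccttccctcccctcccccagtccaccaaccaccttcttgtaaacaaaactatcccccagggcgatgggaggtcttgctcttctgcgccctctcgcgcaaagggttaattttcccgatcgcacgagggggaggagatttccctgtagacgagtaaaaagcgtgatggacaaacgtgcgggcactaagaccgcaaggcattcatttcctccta
Fasn: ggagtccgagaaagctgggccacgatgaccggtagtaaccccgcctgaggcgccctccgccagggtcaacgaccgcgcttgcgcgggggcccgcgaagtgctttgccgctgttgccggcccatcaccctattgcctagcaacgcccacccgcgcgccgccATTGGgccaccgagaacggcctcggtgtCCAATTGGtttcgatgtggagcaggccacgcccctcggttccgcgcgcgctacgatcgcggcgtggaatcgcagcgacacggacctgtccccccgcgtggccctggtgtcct
Hmgcs1: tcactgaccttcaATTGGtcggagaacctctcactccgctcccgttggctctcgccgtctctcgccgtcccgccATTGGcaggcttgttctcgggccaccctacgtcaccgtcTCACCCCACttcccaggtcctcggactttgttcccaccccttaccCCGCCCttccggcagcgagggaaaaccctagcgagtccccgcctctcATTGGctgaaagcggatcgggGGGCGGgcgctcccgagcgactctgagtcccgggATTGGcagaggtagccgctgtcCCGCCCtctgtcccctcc
Insig1: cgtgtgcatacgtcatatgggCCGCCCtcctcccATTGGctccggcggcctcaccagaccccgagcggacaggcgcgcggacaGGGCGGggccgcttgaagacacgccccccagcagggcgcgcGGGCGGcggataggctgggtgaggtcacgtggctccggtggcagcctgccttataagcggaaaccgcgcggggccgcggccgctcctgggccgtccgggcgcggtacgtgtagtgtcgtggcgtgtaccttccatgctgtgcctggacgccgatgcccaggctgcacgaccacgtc
Sc5d: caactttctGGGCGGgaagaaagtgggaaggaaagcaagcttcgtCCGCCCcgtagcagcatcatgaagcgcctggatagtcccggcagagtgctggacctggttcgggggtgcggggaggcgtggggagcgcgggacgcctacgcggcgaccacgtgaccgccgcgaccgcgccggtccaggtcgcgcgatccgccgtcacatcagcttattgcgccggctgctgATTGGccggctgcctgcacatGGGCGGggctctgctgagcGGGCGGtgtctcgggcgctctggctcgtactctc

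The windows lie at chr13:119690101-119690400 (Hmgcs1), chr5:28071162-28071461 (Insig1) and chr3:129532136-129532435 (Elovl6) on the plus strand, and at chr9:42264251-42264550 (Sc5d) and chr11:120824498-120824797 (Fasn) on the minus strand. RefSeq windows were found for 24 of the 30 members, 32 windows in all. The sterol regulatory element core was matched in 1 of them, that of Hmgcs1, where it begins 137 bases before the start, and in 1.24% of 32851 promoters of all genes. Only exact matches to TCACNCCAC were counted, so a window without a match can still hold a variant site that SREBP factors bind. The CCAAT box was matched in 68.8% of the members' windows and in 37.4% of all promoters, and the GC box in 24 of the 32 windows and in 35.7% of all promoters. Among promoters of genes that were tested here, the shares were 37.2% for the CCAAT box and 61.5% for the GC box. Of the 5 members with a window that were higher in SOM, 2 held a CCAAT box and 2 a GC box. Of the 15 with a window that were higher in EMM, all 15 held a CCAAT box and all 15 a GC box in at least 1 window. By window this was 16 and 17 of 19, as some members have more than 1. Of the 4 with a window that did not pass, 4 held a CCAAT box and 3 a GC box. Fdps and Fdft1, both higher in SOM, had no window. A link between motifs and direction was not tested. The Elovl6 window held neither motif, and that of Fasn held CCAAT boxes without a GC box. Among the members higher in SOM that are not shown, Mvd held both motifs, Scap held GC boxes only and Acaca held neither. The only Acaca window, chr11:84195188-84195487, lies inside the annotated gene, which starts at 84129672 on the plus strand. Its first annotated start was thus not covered. No match of a motif overlapped a match of a different motif, though CCAAT matches on opposite strands share bases in the Fasn window.

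The 6 enzymes of the mevalonate pathway, which turn acetyl-CoA units into farnesyl diphosphate, split as genes in general did. Of these, 2 were higher in SOM, 2 were higher in EMM and 2 did not pass, that is 33.3% in each direction, close to the 36.0% and 36.1% of all tested genes. Hmgcs1, which makes HMG-CoA, the precursor of mevalonate, had 6355, 6234, 6088 and 6794 normalized counts in the SOM libraries, against 7470.1, 7416, 7682 and 7624 in the EMM libraries. Every EMM library was above every SOM library, and the log2 difference was -0.25 (SE 0.05, limma adjusted p = 0.000156). Fdps, the farnesyl diphosphate synthase at the branch to sterols and protein prenylation, went the other way. It had 4199, 3832, 4636 and 4002 in SOM, against 3283, 3604, 3568 and 3803 in EMM. The groups did not overlap, though the lowest SOM library came close to the highest EMM library, and the log2 difference was 0.22 (SE 0.06, limma adjusted p = 0.00367). In the annotation Fdps shares 1124 exonic bases with Gm43738 on the same strand, a gene model not analysed here.

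The other mevalonate enzymes differed less. Idi1, the isomerase that makes the activated isoprene unit usable, averaged 1704 ± 68.8 in SOM and 1858 ± 50.4 in EMM (limma adjusted p = 0.0319), a call lost in 8 of 19 alternatives. Mvd, the decarboxylase of the pathway, averaged 1410.3 ± 70.9 in SOM and 1274 ± 98.4 in EMM with overlapping libraries (limma adjusted p = 0.0403), a call lost in 9 of 19 alternatives. The kinases Mvk and Pmvk did not pass, with log2 differences of -0.07 (SE 0.07) and -0.08 (SE 0.07). Within each library the ratio of Fdps to Idi1 normalized counts, a pair picked after their values were seen, was 2.17 to 2.79 in SOM against 1.75 to 2.01 in EMM, which restates their opposite differences.

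Among the 11 enzymes that lead from squalene formation to cholesterol, 1 was higher in SOM, 8 were higher in EMM and 2 did not pass. The shares were 9.09% and 72.7%, against 36.0% and 36.1% of all tested genes. The exception was the entry enzyme. Fdft1, the squalene synthase that commits farnesyl diphosphate to sterols, had 3287, 3346, 3223 and 3228 in SOM, against 2754, 2738, 2826 and 2984 in EMM. All SOM libraries were above all EMM libraries, and the log2 difference was 0.21 (SE 0.05, limma adjusted p = 0.000609). Fdft1 shares 774 exonic bases with Ctsb on the opposite strand, a gene that averaged 5435 ± 202 in SOM and 11950.3 ± 827 in EMM, and without the strand their shared reads cannot be told apart. Sqle, the squalene epoxidase of the next step, averaged 3951 ± 199 in SOM and 4229 ± 95.7 in EMM. Its libraries did not overlap, but the difference did not pass (-0.10, SE 0.05, limma adjusted p = 0.0725), and it passed without SOM replicate 2 (adjusted p = 0.0427, in a range of alternatives up to 0.817).

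The largest sterol enzyme differences were in Sc5d and Hsd17b7. Sc5d, a sterol desaturase of the last steps, had 873, 924, 765 and 893 in SOM, against 1169, 1204, 1205 and 1192 in EMM. The EMM libraries were nearly level with each other and all above SOM, and the log2 difference was -0.47 (SE 0.06, limma adjusted p = 4.04e-06). Hsd17b7, the ketosteroid reductase that helps to strip methyl groups from the sterol ring, had 655, 604, 594 and 659.8 in SOM, against 980.1, 824, 812 and 847 in EMM. The groups lay well apart, with EMM replicate 1 the highest, and the log2 difference was -0.46 (SE 0.07, limma adjusted p = 1.94e-05).

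The lanosterol-processing enzymes were lower in SOM, with log2 differences from -0.30 to -0.17. Cyp51, the lanosterol demethylase, had 4259.9, 4235, 3950.2 and 4202 in SOM, against 4781, 4862, 4578 and 4971 in EMM, with no overlap and a log2 difference of -0.21 (SE 0.05, limma adjusted p = 0.000859). Msmo1 and Nsdhl, which act with Hsd17b7 in methyl removal, had differences of -0.21 (SE 0.05) and -0.17 (SE 0.06), Lss, the lanosterol synthase, -0.18 (SE 0.06), and Ebp, a sterol isomerase, -0.26 (SE 0.07), with limma adjusted p of at most 0.0148. Tm7sf2, a sterol reductase, averaged 402 ± 47.0 in SOM and 493 ± 30.6 in EMM (-0.30, SE 0.08, limma adjusted p = 0.00491), with overlapping libraries, and shares 532 exonic bases with Vps51 on the same strand, which was higher in SOM. Under total read scaling none of these 6 enzymes passed. Dhcr7, the reductase that makes cholesterol from its immediate precursor and is mutated in Smith-Lemli-Opitz syndrome, averaged 1645 ± 105 in SOM and 1699.6 ± 99.2 in EMM and did not pass (-0.05, SE 0.06, limma adjusted p = 0.480).

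**Figure D2:**
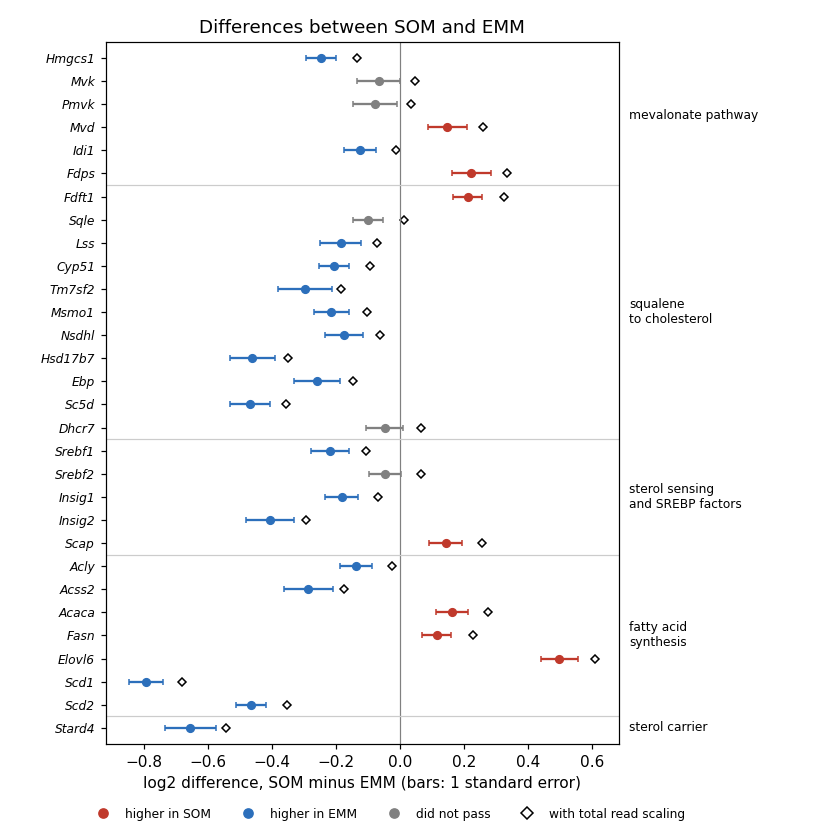
Fitted log2 difference, SOM minus EMM, of each gene with bars of 1 standard error, coloured by the limma call, and as open diamonds the same difference with libraries scaled to equal total reads. Points run from -0.79 for Scd1 to 0.50 for Elovl6, and every diamond lies to the right of its point.

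Among the sterol-sensing genes, 1 was higher in SOM, 3 were higher in EMM and 1 did not pass. The shares were 20.0% and 60.0%, against 36.0% and 36.1% of all tested genes. Insig2, an endoplasmic reticulum protein that retains Scap, had 337, 335, 309.6 and 299 in SOM, against 421, 430.2, 399 and 444 in EMM, with no overlap and a log2 difference of -0.40 (SE 0.08, limma adjusted p = 0.000148). Its paralog Insig1, itself a known target of SREBP factors, had 2481, 2408, 2296 and 2690.0 in SOM, against 2758, 2798, 2727 and 2903 in EMM. The groups again did not overlap, but the difference was smaller, at -0.18 (SE 0.05, limma adjusted p = 0.00569). Srebf1, better known for fatty acid genes, averaged 1957 ± 121 in SOM and 2276 ± 142 in EMM (-0.22, SE 0.06, limma adjusted p = 0.00316). Srebf2, better known for sterol genes, averaged 5940.5 ± 282 in SOM and 6134 ± 272 in EMM, with overlapping libraries and a difference that did not pass (-0.05, SE 0.05, limma adjusted p = 0.411). Scap was the member higher in SOM, at 1636, 1607, 1782 and 1727 against 1531, 1516, 1596 and 1466 in EMM (0.14, SE 0.05, limma adjusted p = 0.0212), a call lost in 3 of 19 alternatives. With total read scaling the calls of Insig1 and Srebf1 were lost, at adjusted p = 0.228 and 0.106, the highest of their alternatives.

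Fatty acid synthesis split by step. The 3 enzymes that build and lengthen the chain were higher in SOM. The 2 desaturases and the 2 enzymes that supply acetyl-CoA were higher in EMM. All 7 members thus passed, where 72.1% of all tested genes did. The shares by direction were 42.9% and 57.1%, against 36.0% and 36.1% of all tested genes. Scd1, a stearoyl-CoA desaturase that puts a double bond into saturated fatty acids, had 1889, 1854, 1717 and 1963 in SOM, against 3104, 3141, 3174 and 3435 in EMM. This was the largest difference among the 30, with a wide gap between the groups, at -0.79 on the log2 scale (SE 0.05, limma adjusted p = 1.73e-09). Scd2, its paralog with a known role in embryonic and brain tissue, had 21375, 22115, 20759.9 and 22865 in SOM, against 29246, 30833, 29235 and 30873 in EMM. These groups were also far apart, by -0.46 (SE 0.05, limma adjusted p = 1.44e-07). Both genes lie on chromosome 19 of GRCm38, Scd2 from 44293674 to 44306864 on the plus strand and Scd1 from 44394455 to 44407879 on the minus strand, and the sources used here do not state how reads matching both were counted.

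Elovl6, the elongase that lengthens palmitate to stearate, the main substrate of those desaturases, went the other way. It had 2638, 2838, 2549 and 2978 in SOM, against 1975, 1802, 1960.1 and 2044 in EMM. Every SOM library was above every EMM library, and the log2 difference was 0.50 (SE 0.06, limma adjusted p = 1.04e-06). Fasn, the fatty acid synthase, had 12388, 12317, 12694 and 13378 in SOM, against 11638, 11264, 11858 and 12102 in EMM. The groups did not overlap but lay close, at 0.12 (SE 0.05, limma adjusted p = 0.0306), and the call was lost in 5 of 19 alternatives. Acaca, the acetyl-CoA carboxylase that makes the building block malonyl-CoA, averaged 4351 ± 240.3 in SOM and 3885 ± 153 in EMM (0.16, SE 0.05, limma adjusted p = 0.00898). Its libraries overlapped, and the call was lost in 1 of 19 alternatives.

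The acetyl-CoA suppliers were lower in SOM. Acly, which makes acetyl-CoA from citrate, averaged 6667 ± 323 in SOM and 7328 ± 290.5 in EMM with overlapping libraries (-0.14, SE 0.05, limma adjusted p = 0.0191), a call lost in 6 of 19 alternatives. Acss2, which makes it from acetate, had 289.6, 271, 318 and 282 in SOM, against 347, 354, 366 and 347 in EMM, with no overlap (-0.29, SE 0.08, limma adjusted p = 0.00365). Neither passed under total read scaling. Acss2 shares exonic bases with Gss and Ggt7 on the opposite strand, both of which were higher in SOM.

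Stard4, a small soluble carrier that moves cholesterol between membranes, had 428, 484, 414 and 518 in SOM, against 723, 694, 794 and 687 in EMM. The groups were separated by a wide gap, and the log2 difference of -0.65 (SE 0.08, limma adjusted p = 1.71e-06) was exceeded only by that of Scd1 among the 30.

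Paired genes of like function were compared within each library, a measure that does not depend on the scaling of libraries. Per kilobase of annotated exon, the ratio of Scd2 to Scd1 was 10.1, 10.7, 10.8 and 10.4 in SOM, against 8.44, 8.79, 8.25 and 8.05 in EMM. The groups did not overlap (two-sided exact permutation test over the 8 libraries, p = 0.0286, the smallest that 70 regroupings can give, adjusted p = 0.0429 over the 3 pairs). The ratio of Insig1 to Insig2 was 8.25, 8.07, 8.33 and 10.1 in SOM, against 7.36, 7.30, 7.67 and 7.34 in EMM, also without overlap (exact permutation p = 0.0286, adjusted p = 0.0429), with SOM replicate 4 the highest. The ratio of Srebf1 to Srebf2 averaged 0.421 ± 0.0298 in SOM and 0.474 ± 0.0431 in EMM with overlapping libraries and did not pass (exact permutation p = 0.0857, adjusted p = 0.0857). The 3 pairs were formed from members chosen with earlier results of these data known. Their ratios restate the differences of their genes given above and add no separate evidence.

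Other ratios, picked after the members' values were seen and given without a test, set the genes that moved in opposite directions against each other. Elovl6 over Scd1 was 1.40 to 1.53 normalized counts per count in SOM against 0.574 to 0.636 in EMM. Fasn over Scd2 was 0.557 to 0.611 in SOM against 0.365 to 0.406 in EMM. Fdft1 over Hmgcs1 was 0.475 to 0.537 in SOM against 0.368 to 0.391 in EMM. These 3 ratios restate the opposite differences of genes whose libraries did not overlap and add no separate evidence.

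**Figure D3:**
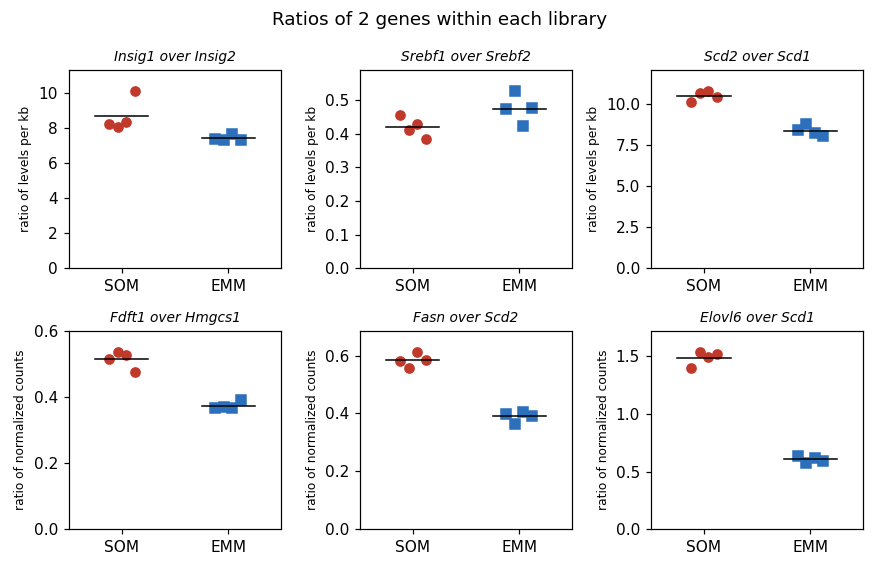
Ratios of 2 genes within each library, with SOM as circles on the left, EMM as squares on the right and the group mean as a line. The upper row is per kilobase of exon and the lower row uses normalized counts. SOM and EMM libraries overlap for Srebf1 over Srebf2 and lie apart in the other 5 panels.

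Levels of the members could be ranked per kilobase of exon. Scd2 stood highest in both groups, at 3986 ± 167 normalized counts per kilobase in SOM and 5499 ± 170.4 in EMM, followed by Hmgcs1, at 1386 ± 66.2 in SOM and 1643 ± 27.3 in EMM. Acly came next, and after it the order of Fasn and Cyp51 differed between the regions, with Fasn at 1159.6 ± 44.3 in SOM and 1070.2 ± 32.5 in EMM, and Cyp51 at 943 ± 32.4 in SOM and 1087 ± 37.6 in EMM. In EMM those 2 levels differed by less than their spread. Insig1 and Srebf2 were likewise within their spread of each other in SOM, at 798 ± 53.7 and 827 ± 39.3 per kilobase. Acss2 was the lowest member, at 28.6 ± 1.98 in SOM and 34.8 ± 0.857 in EMM. These levels divide by all annotated exon bases of a gene, which understates genes with long exons that these cells leave out.

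**Figure D4:**
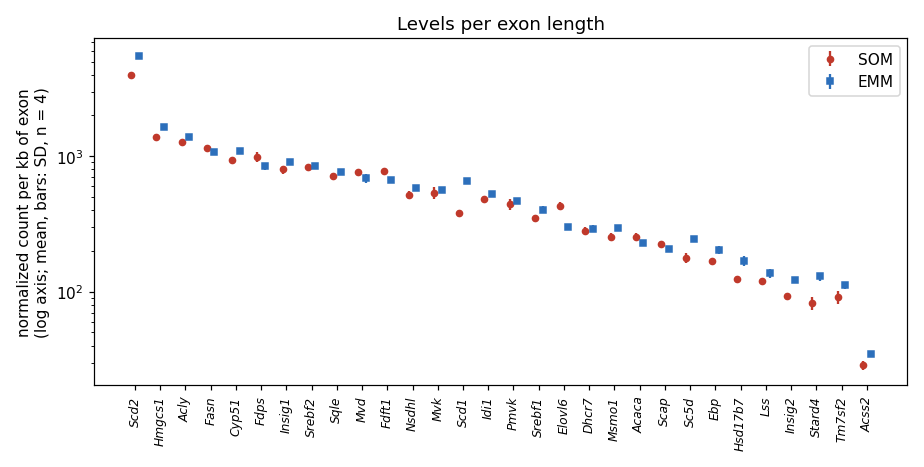
Normalized count per kilobase of annotated exon for each gene on a log axis, mean with SD bars over 4 libraries, SOM as circles left of EMM as squares, ordered by level. Scd2 stands above all others, at 3986 in SOM and 5499 in EMM, and Acss2 is the lowest, at 28.6 and 34.8.

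Single libraries were compared over all members. The mean of all 30 on the log2 scale, taken as the difference from each gene's mean, was -0.07, -0.09, -0.07 and -0.07 in SOM replicates 1 to 4 and 0.05, 0.06, 0.08 and 0.12 in EMM replicates 1 to 4. EMM replicate 4 held the highest EMM value of 19 members, and without it the count of members higher in EMM was 14. In SOM, replicate 4 held the highest value of 12 members and replicate 3 the lowest of 13. For the 11 enzymes from squalene formation to cholesterol the mean ran from -0.12 to -0.07 in SOM and from 0.07 to 0.15 in EMM, while for the 6 mevalonate enzymes it ran from -0.07 to 0.08 in SOM and from -0.05 to 0.09 in EMM, with the groups overlapping.

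Neighbouring parts of lipid metabolism were examined with lists of 95 further genes, of which 92 were tested. Among these, 20 were higher in SOM, 49 were higher in EMM and 23 did not pass. The shares were 21.7% and 53.3%, against 36.0% and 36.1% of all tested genes. Of 11 genes of SREBP processing and sterol-regulated turnover, none was higher in SOM, 9 were higher in EMM, or 81.8%, and 2 did not pass. Their median log2 difference was -0.43, and that of all tested genes 0.01. Erlin2, part of an endoplasmic reticulum complex in sterol-dependent protein turnover, averaged 1736 ± 64.7 in SOM and 3704 ± 169 in EMM (-1.09, limma adjusted p = 1.56e-11). Pgrmc1, a heme-binding partner of Cyp51, averaged 4778 ± 328 in SOM and 7568 ± 538 in EMM (-0.66).

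The list of sterol uptake, storage and efflux held 16 genes, of which 5 were higher in SOM, 10 were higher in EMM and 1 did not pass. The shares were 31.25% and 62.5%, against 36.0% and 36.1% of all tested genes. The list also held 2 genes of sterol synthesis, Acat2, higher in SOM (0.42), and Lbr, higher in EMM (-0.16). Its counts and shares are thus not of uptake, storage and efflux alone. Abca1, the cholesterol efflux pump, averaged 804 ± 89.95 in SOM and 2081 ± 376 in EMM (-1.36, limma adjusted p = 5.46e-06), and Lipa, the lysosomal lipase that frees cholesterol from its esters, averaged 1101 ± 76.7 in SOM and 2408 ± 264 in EMM (-1.12). Both are also expressed by macrophages, all 13 of whose markers were higher in EMM, and the part of those cells was not tested. Vldlr, a lipoprotein receptor that also serves reelin signalling, rose to 363 ± 16.5 in SOM, against 104 ± 18.6 in EMM (1.81, limma adjusted p = 1.33e-09), and Abcg1, another sterol exporter, to 146 ± 13.8, against 72.5 ± 9.09 in EMM (1.001).

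Of 13 enzymes that use the isoprenoid branch, 5 were higher in SOM, 5 were higher in EMM and 3 did not pass, that is 38.5% in each direction, close to the share of all tested genes. Rabggta, a subunit of the enzyme that prenylates Rab proteins, averaged 499 ± 25.5 in SOM and 284 ± 11.996 in EMM (0.81, limma adjusted p = 5.07e-08), and Pdss1, which starts the side chain of coenzyme Q, 176 ± 25.2 in SOM and 112 ± 19.0 in EMM (0.64). Zmpste24, the protease of prelamin A, and Pggt1b, a subunit of a protein prenyltransferase, were higher in EMM, with differences of -0.62 each.

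Of 19 tested genes listed under fatty acid elongation and desaturation, 5 were higher in SOM, 10 were higher in EMM and 4 did not pass. The shares were 26.3% and 52.6%, against 36.0% and 36.1% of all tested genes. The list also held genes that supply or regulate fatty acid synthesis, so its shares are not of elongation and desaturation alone. Among those, Mlxipl was higher in SOM (3.42), Me1 (-0.50) and Mid1ip1 were higher in EMM, and Acacb and Slc25a1 did not pass. Elovl2, an elongase of polyunsaturated fatty acids, averaged 262 ± 10.9 in SOM and 61.7 ± 7.14 in EMM (2.07, limma adjusted p = 1.73e-10), and Tecr, the reductase that completes each elongation cycle, 5270.1 ± 337 in SOM and 4325 ± 54.1 in EMM (0.28). Fads3, of the fatty acid desaturase family, averaged 705 ± 22.7 in SOM and 1826 ± 62.9 in EMM (-1.37, limma adjusted p = 1.66e-12), and Mid1ip1, an activator of acetyl-CoA carboxylase, 351 ± 31.3 in SOM and 644 ± 36.2 in EMM (-0.88). The elongases did not share a direction. Elovl1 was higher in EMM, at 972 ± 83.7 in SOM and 1644 ± 95.97 in EMM (-0.76, limma adjusted p = 3.72e-08), as were Elovl4 (-0.21) and Elovl5 (-0.12), while Elovl7 was higher in SOM (0.73). These 4 elongases were added after their values were seen.

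Of 18 tested genes of fatty acid activation and glycerolipid synthesis, 4 were higher in SOM, 6 were higher in EMM and 8 did not pass. The shares were 22.2% and 33.3%, against 36.0% and 36.1% of all tested genes. Dgat1, which completes triglycerides, and the phosphatidate phosphatase gene Lpin2 were higher in SOM, with differences of 0.49 and 0.44. Agpat2, which makes phosphatidate, and Acsl4, which activates long-chain fatty acids, were higher in EMM, with -0.92 and -0.70. Of 15 fatty acid oxidation genes, 1 was higher in SOM, 9 were higher in EMM and 5 did not pass. Their shares were 6.67% and 60.0%, and 66.7% passed in either direction, where 72.1% of all tested genes did. Cpt1a, which admits long-chain fatty acids to mitochondria, averaged 538 ± 46.5 in SOM and 1478 ± 97.3 in EMM (-1.46, limma adjusted p = 3.21e-11), and Ppara, the nuclear receptor known to drive such genes, 61.5 ± 5.52 in SOM and 109.6 ± 6.18 in EMM (-0.83). Etfb was the oxidation gene higher in SOM, at 0.17 with overlapping libraries (limma adjusted p = 0.0128), and shares 617 exonic bases with Gm45233.

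**Figure D5:**
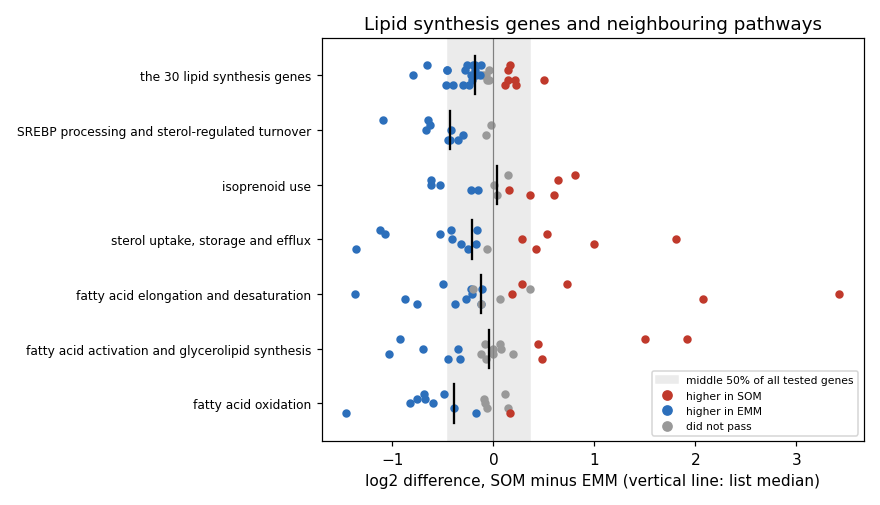
Log2 difference, SOM minus EMM, of each tested gene in the 30 lipid synthesis genes and in the lists of neighbouring pathways, coloured by the limma call, with the list median as a vertical line and the middle 50% of all tested genes shaded, from -0.45 to 0.36. The 30 genes span -0.79 to 0.50, and the SREBP processing list lies wholly below 0.

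In the authors' deposited table, whose log2 fold change is positive where EMM is higher, 6 members were higher in SOM, 18 were higher in EMM and 6 did not pass. Of all genes with an adjusted p in that table, 57.2% passed in either direction and 29.1% were higher in EMM. The call that differed from limma's was that of Mvd, with an adjusted p of 0.0563 in the authors' deposited table.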

How the data were processed

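Total RNA of 8 pools, 4 SOM and 4 EMM, was sequenced from Illumina TruSeq libraries, per the labels' protocols, after dispase. The submitters' processing notes name bcl2fastq, STAR, DESeq2 and build mm10. For the annotation, the read counter and the strand setting, the sources used here give nothing. The authors deposited a normalized count (signal) per gene and library, which per the file headers and values is a read count over a size factor. The deposited table also holds a log2 fold change, its standard error and Wald score, and a p-value and adjusted p-value.

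Every deposited value is, within 1 ppm, a whole multiple of its column's lowest value above 0, and division by that value recovered the reads. Genes with at least 10 normalized counts in at least 4 libraries were kept, 14249 in all. Values were fitted as log2(normalized count + 1) by limma (3.58.1, under R 4.3.3), using a mean-variance trend, robust moderation and no covariate. Alternatives used edgeR 4.0.16 and DESeq2 1.42.0 on recovered reads, other scalings, filters and pseudocounts, and left-out libraries.

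The members and lists were chosen with earlier results of these data known. Named genes were all 30 members and, from each neighbouring list, up to 2 per direction with the largest called difference among those averaging 100 or more normalized counts where they were higher. P-values measure the spread between pools. Replicates of a group differed beyond sampling noise, with a chi-square per degree of freedom of 3.59 to 18.8. Lengths, coordinates and overlaps come from GENCODE M21 on GRCm38, the assembly mm10 names, and promoters from RefSeq on GRCm38.p6. In the annotation 12 of the 30 members share exonic bases with another gene. On simulated SOM and EMM libraries of 14124 genes, the fit recovered 36.0% of 1.25-fold, 80.0% of 1.5-fold and 100% of 4-fold changes, and called 9 of 13925 unchanged genes. At most 50 genes per fold were changed there, whereas 72.1% of tested genes passed in the data. The adjustment is stricter where few genes change, so these shares do not carry over to the data.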

Additional observations from a re-analysis of the deposited data

How the results depend on the processing

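With libraries scaled to equal total reads, 7 members, in place of 18, were higher in EMM, the differences of Mvk, Pmvk, Sqle, Dhcr7 and Srebf2, none of which had passed, changed sign to 0.0463, 0.0346, 0.0130, 0.0649 and 0.0662, and 59.5% of called genes were higher in SOM, against 49.9% with the deposited scaling. When SOM replicate 4 and EMM replicates 2 and 3 were all left out, 3 members were higher in SOM and 17 in EMM, against 33.7% and 34.0% of all tested genes. Leaving out single libraries gave 5 to 7 members higher in SOM and 14 to 18 in EMM, and 4746 to 5012 genes higher in SOM and 4767 to 5209 in EMM. The replicate numbers pair no samples by the labels, and same-numbered libraries deviated together with correlations between -0.02 and 0.13. With the replicate block 6 members were higher in SOM and 18 in EMM, against 5103 and 5146 genes, and the call lost was that of Mvd. No other planned setting moved these counts by over 1.5 times. No call was lost in any setting among the neighbouring genes picked by the rule of up to 2 per direction. Genes added after their values were seen, such as Elovl5, were not followed through the settings. Differences near 0.1 on the log2 scale are at the limit of 4 pools per group and of the scaling.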

Other observations

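The following lipid genes, most of them at low levels, were picked after their values were seen. Mlxipl, which encodes the carbohydrate-responsive factor ChREBP, a known driver of fatty acid synthesis genes in liver, averaged 54.2 normalized counts in SOM and 4.23 in EMM. Acsl6, a fatty acid activating enzyme best known from neurons, averaged 52.0 in SOM and 13.6 in EMM, and the phosphatidate phosphatase gene Lpin3 54.2 in SOM and 18.3 in EMM. Nr1h3, which encodes the sterol-sensing receptor LXR alpha, averaged 14.99 in SOM and 33.1 in EMM, while Nr1h2, which encodes LXR beta, averaged 1115 in SOM and 916 in EMM. The libraries of the groups did not overlap for these 5 genes, where 66.1% of all tested genes showed no overlap. The summed neuron markers were 2859 to 3095 in SOM against 1235 to 1643 in EMM, but the sum was carried by Tubb3 and Stmn2. Elavl4 was also higher in SOM, while Syt1, at 15.6 in SOM and 131 in EMM, Snap25, at 45.2 and 82.7, and Elavl3, at 3.54 and 20.8, were higher in EMM. The part of neurons in these values was not tested.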
